A study of Homo sapiens with 22 samples.

Results

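In SK-N-AS, an established human neuroblastoma cell line, 23 of the 35237 genes counted were well expressed in untreated cells, at or close to 0 after 30 days of treatment, and not excluded by a clause on a second line, GIMEN. The genes were selected on measured values, with expression as CPM (the count of a gene scaled by the total count of its library). Each had over 10 CPM in each of the 4 untreated SK-N-AS libraries and under 0.5 CPM in each of the 4 day-30 libraries, which 44 genes met. Of these, 21 were left out because their mean in treated GIMEN was at most a ratio of 0.25 of that in untreated GIMEN, from at least 1 CPM. The remaining 23 are SHD, RP11-466H18.1, HR, INSM2, FNDC5, TRIL, IGDCC3, ATP2B3, IGLON5, FBP1, TM4SF4, DLK1, SLC6A2, SLC18A3, ADAMTS19, CCDC3, TSPAN8, ARHGAP9, SPSB4, ISLR, SCARA3, GPR27 and ABCD2. Their high level in untreated cells and low level at day 30 are therefore given as a description with no test.

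The 22 libraries were made from total RNA of SK-N-AS and of GIMEN, both of which the labels class as mesenchymal (MES) neuroblastoma lines. Untreated ("naive") SK-N-AS cells grew in DMEM with 10% fetal bovine serum (n = 4). Stage 1 (S1D4, n = 4) was 4 days of 5 µM PP121, an inhibitor of tyrosine and phosphoinositide kinases, in DMEM with serum lowered to 1%. Stage 2 moved S1D4 cells into Neurobasal medium with the B27 supplement, 5 µM PP121 and 100 nM bufalin, a cardiac glycoside that inhibits the sodium pump. It lasted 4 days in the S2D4 libraries (n = 4) and 30 days in the S2D30 libraries (n = 4), and the labels name no serum there. GIMEN cells grew in RPMI, either untreated with 10% serum (n = 3) or for 30 days with serum at 1%, PP121 at 2.5 µM and bufalin at 10 nM (D30, n = 3), so the lines differed in dose, medium and serum. No group received the low-serum or Neurobasal medium without compound, so that medium and compound cannot be told apart. The labels do not say whether replicates were separate cultures, and p-values measure only the spread between these libraries. In bulk RNA, fewer cells of a type and less RNA per cell cannot be told apart.

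Total counts were 16456484 to 37506800 per library, so that 1 count was worth 0.0267 to 0.0608 CPM. The 7 adrenergic markers checked summed to 1593 to 1898 CPM in untreated SK-N-AS and to 395 to 417 CPM in untreated GIMEN, where PHOX2A and TH had 0 counts. The 7 mesenchymal markers summed to 1195 to 1609 CPM in untreated SK-N-AS and to 32830 to 34320 CPM in GIMEN, so the adrenergic markers were present in the SK-N-AS cells despite their label. FN1, with a mean of 27660 CPM, made up most of the untreated GIMEN sum. Across the SK-N-AS stages the adrenergic sum was 1430 to 1705 CPM in S1D4, 503 to 716 CPM in S2D4 and 209 to 242 CPM in S2D30. The mesenchymal sum was 1458 to 1694, 2115 to 4507 and 2982 to 3497 CPM in the same groups. Most of it was VIM, with means of 1018 CPM in untreated and 2845 CPM in S2D30 cells. By mean, PRRX1, SNAI2, CD44 and YAP1 were also higher in S2D30 than in untreated cells. FN1 was lower, from 66.3 to 1.89 CPM, as was NOTCH3, from 190 to 9.06 CPM, so the markers did not move as 1 set. Between untreated cells and S1D4 the ranges of both sums overlapped. From S1D4 to S2D4 the adrenergic sum was lower and the mesenchymal sum higher. From S2D4 to S2D30 the adrenergic sum was lower again, while the mesenchymal ranges overlapped. The part of either sum in the loss of the 23 genes was not tested. Among 5 leukocyte markers, summing to 175 to 236 CPM in untreated SK-N-AS and 22.4 to 27.5 CPM in S2D4, PTPRC had a mean of 193 CPM in untreated, 64.1 CPM in S1D4, 22.8 CPM in S2D4 and 0.841 CPM in S2D30 cells. The other leukocyte markers had means of at most 1.46 CPM in untreated cells, CD3E had 0 counts in every SK-N-AS library and LCP1 reached 67.2 CPM in S2D30, and 4 Schwann cell markers summed to 0.888 to 2.09 CPM in untreated cells. PTPRC was thus lower at each later stage, as were most of the 23 genes, and its part in their result was not tested.

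Neuroblastoma arises from the sympathoadrenal lineage of the neural crest, and its cells lie along an axis from an adrenergic state, in which lineage transcription factors maintain noradrenaline handling genes, to a mesenchymal state. Genes of the noradrenergic phenotype are used clinically: the noradrenaline transporter takes up the tracer used in neuroblastoma imaging. The 23 genes do not form 1 known pathway. They are described below by role: nuclear regulators, transporters and receptors, signalling adaptors, membrane proteins, secreted proteins and metabolic enzymes.

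The promoters of the 23 genes and of the 21 left-out genes were compared for short sequence motifs. RefSeq windows of 250 bases upstream of the start site (GRCh38.p14) were matched for 15 of the 23 and for 18 of the 21, 13 of all 21 being genes of a mitosis list. Windows of 3 of the 23 genes, chosen because they hold these motifs and no annotated exon, and of MKI67, a proliferation marker among the 21, are shown 5′ to 3′ on the gene's strand. Capitals mark CAGCTG, an E-box bound by basic helix-loop-helix factors, ATTGG, the CCAAT box on the other strand, and TTTGAA, the cell cycle genes homology region (CHR) through which the DREAM and MuvB complexes act on mitotic genes. The windows are TRIL at chr7:28958331-28958580 (minus strand), SPSB4 at chr3:141051097-141051346 (plus), IGLON5 at chr19:51311394-51311643 (plus) and MKI67 at chr10:128126424-128126673 (minus).
TRIL: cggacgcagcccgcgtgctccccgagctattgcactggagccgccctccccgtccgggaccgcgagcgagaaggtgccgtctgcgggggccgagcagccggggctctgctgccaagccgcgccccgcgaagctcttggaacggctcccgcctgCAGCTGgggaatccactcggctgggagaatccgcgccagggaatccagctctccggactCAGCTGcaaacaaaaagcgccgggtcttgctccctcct
SPSB4: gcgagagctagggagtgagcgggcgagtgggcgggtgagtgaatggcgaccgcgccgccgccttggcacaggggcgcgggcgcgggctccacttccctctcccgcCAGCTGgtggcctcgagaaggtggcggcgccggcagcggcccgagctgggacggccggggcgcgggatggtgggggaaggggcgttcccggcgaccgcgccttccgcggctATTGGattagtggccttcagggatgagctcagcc
IGLON5: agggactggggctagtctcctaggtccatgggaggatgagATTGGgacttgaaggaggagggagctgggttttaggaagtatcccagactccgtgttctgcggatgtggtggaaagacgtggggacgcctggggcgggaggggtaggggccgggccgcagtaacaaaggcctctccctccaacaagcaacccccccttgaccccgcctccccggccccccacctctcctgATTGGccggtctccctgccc
MKI67: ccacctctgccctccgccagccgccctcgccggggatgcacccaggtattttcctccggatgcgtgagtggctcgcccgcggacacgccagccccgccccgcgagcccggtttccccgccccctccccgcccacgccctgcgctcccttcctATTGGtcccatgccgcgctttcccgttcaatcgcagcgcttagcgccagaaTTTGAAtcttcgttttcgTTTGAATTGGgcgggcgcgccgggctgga

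Positions are counted back from the start site, with -1 the base just before it. TRIL holds CAGCTG at -97 to -92 and at -38 to -33, and SPSB4 at -145 to -140. MKI67 holds TTTGAA at -47 to -42 and at -29 to -24, the latter overlapping an ATTGG at -24 to -20 by 1 base. Searched on both strands, TTTGAA was in 1 of the 15 windows (6.67%), in 12 of the 18 left-out windows (66.67%) and in 13.32% of all 35116 windows of this length. CCAAT was in 5 of 15 (33.33%), in 12 of 18 (66.67%) and in 32.01% of all. CAGCTG was in 4 of 15 (26.67%), in 3 of 18 (16.67%) and in 13.99% of all. The GATA factor core, spelled AGATAA, was in 0 of 15 windows against 9.17% of all. The AP-1 string TGACTCA was in 1 of 15 against 4.2%. The TATA box, searched as TATAAA, was in 2 of 15 against 10.72%. The E2F strings were TTTCGCGC and, as a variant, TTTGGCGC, in 0 of 15 each against 0.44% and 0.55%. The core of the neuron-restrictive silencer element was in 0 of 15 against 0.05%. Median GC content was 70.8% in the 15 windows, 58.8% in the 18 and 58.0% over all. Where RefSeq lists several starts the window of 1 start was used, and the small counts depend on that choice. The single TTTGAA match was in ISLR, whose other listed window lacks it. The single TGACTCA match and 1 of the CAGCTG matches were in ABCD2. Its other listed window lacks both and holds TTTGAA and CCAAT. The other listed window of CCDC3 holds CAGCTG and lacks the CCAAT of the one used. These counts describe letters in a window and say nothing of binding.

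By fixed lists, 0 of the 23 genes were among 69 mitosis genes or 56 replication genes, where the 21 left-out genes had 13 and 1. The GIMEN clause was set to leave out proliferation genes lost in both lines, so these counts do not test the name "non-mitotic". All 22 genes that RefSeq matched are protein coding, and none lies within 3 genes of another of the 23. The GIMEN clause was met by 21 of the 23 through a mean under 1 CPM in untreated GIMEN, and 8 had 0 counts in all 6 GIMEN libraries. For those 21, GIMEN cells held little of the transcript to lose, and the clause does not show that it was kept: TM4SF4 had a mean of 0.125 CPM in untreated GIMEN and 0 counts in each treated library, and ISLR 0.227 and 0.0193 CPM. RP11-466H18.1 was not matched in RefSeq and is given by name only.

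**Figure D1:**
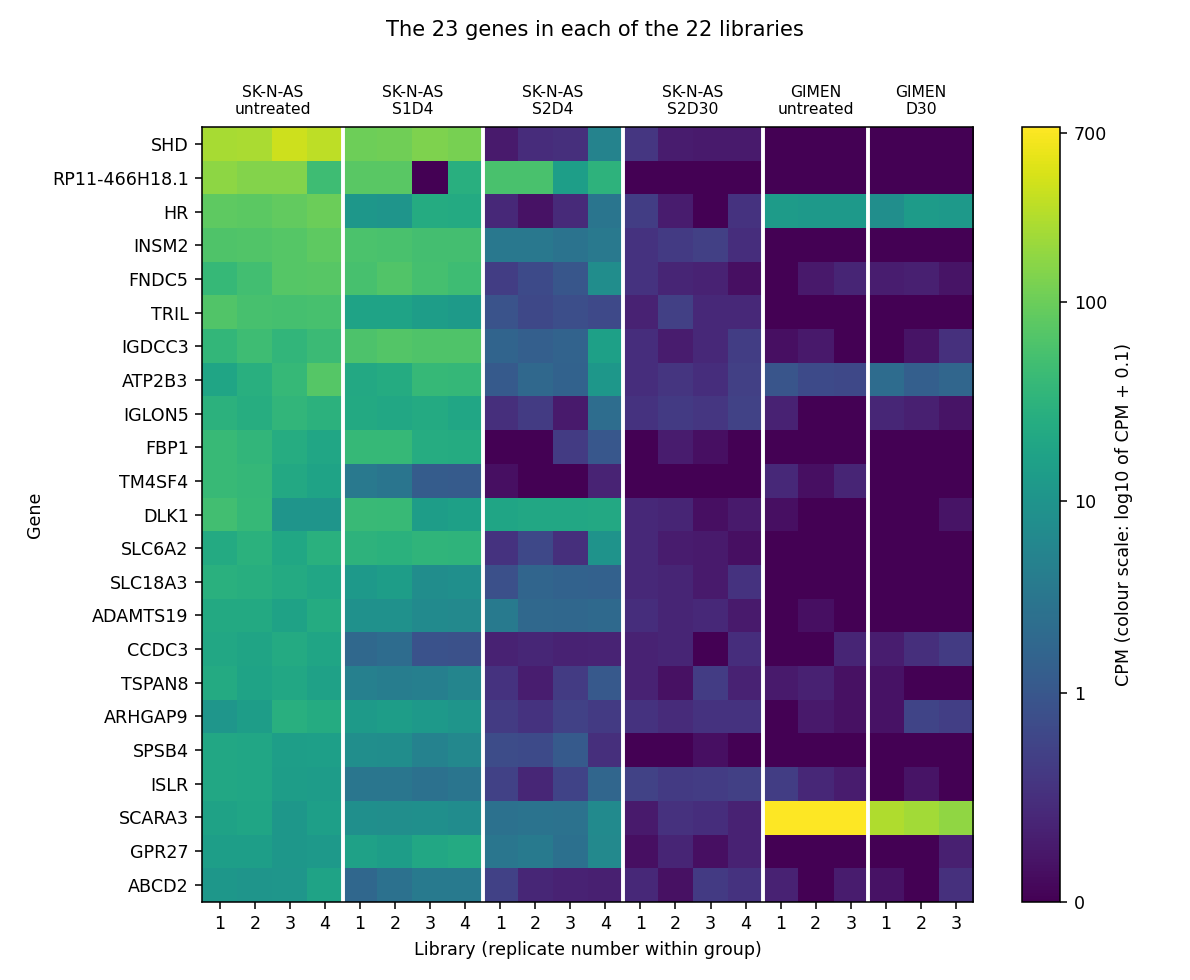
Expression of the 23 genes (rows) in the 22 libraries (columns, grouped by line and treatment), in CPM on a logarithmic colour scale with 0.1 added. Untreated SK-N-AS libraries are bright in every row and S2D30 libraries dark, as the selection requires, most rows are already dark in S2D4 and GIMEN is dark except for SCARA3, HR and, at 0.595 to 2.21 CPM, ATP2B3.

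The S1D4 and S2D4 libraries were not used for the selection, and S2D4 against S1D4 shares no library with it. The selection still required a fall between untreated cells and S2D30, which may come at any step between them. A fall from S1D4 to S2D4 is thus made more likely by the rule. Its count is not independent of the rule, and the shares of all genes beside it carry no such requirement. Genes were tested with edgeR's quasi-likelihood test in 1 fit of the 16 SK-N-AS libraries, with p-values adjusted (Benjamini-Hochberg) over 15810 genes and called under 0.05. All 23 genes passed the filter on low counts. From S1D4 to S2D4, 21 of the 23 fell and 0 rose, where 26.8% of all genes fell and 28.3% rose, and 27.7% of the 9706 genes over 10 CPM in each untreated library fell. In those 21 genes each S2D4 library lay below each S1D4 library, which held for 34.3% of all genes. The exceptions were DLK1 and RP11-466H18.1, which did not pass the test. No gene of the 23 rose at an unadjusted p under 0.05 in any of the 3 contrasts of S1D4 and S2D4. DESeq2 also called 0 rises, among 20 genes, since it gave no adjusted p for SHD, IGDCC3 and SLC6A2. The median log2 fold change of the 23 was -3.17, against -1.42 for the 21 left-out genes (19 lower, 0 higher) and 0.02 for all genes tested.

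Fewer of the genes had fallen at S1D4. In S1D4 against untreated cells, 14 of the 23 fell and 0 rose, where 22.4% of all genes and 29.2% of the genes over 10 CPM in each untreated library fell and 17.6% of all rose. This contrast shares the untreated libraries with the selection, in each of which the genes had to be high. Libraries did not overlap for 14 genes that were lower in S1D4 (18.7% of all genes), which include IGLON5, not called, and leave out ARHGAP9, called, nor for 2 that were higher (19.4% of all genes), IGDCC3 and SLC6A2, neither of which passed the test. The 9 that did not pass were RP11-466H18.1, FNDC5, IGDCC3, ATP2B3, IGLON5, FBP1, DLK1, SLC6A2 and GPR27. Mean level at S1D4 was 43.8% of untreated in the median gene, from 7.17% (CCDC3) to 159% (IGDCC3). The 21 left-out genes lay in a narrower range at this stage, with a median of 29.2% and a span of 22.8% to 40.5%, and all 21 fell.

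In S2D4 against untreated cells 21 of the 23 fell and 0 rose, where 32.2% of all genes and 36.3% of the genes over 10 CPM in each untreated library fell and 30.9% of all rose. As above, the untreated libraries of this contrast are those in which the selection required a high level, so the count is not independent of the rule. Those 21 also had S2D4 libraries that all lay below all untreated libraries, as did 33.6% of all genes. The median gene retained 4.23% of its untreated mean, from 0.164% (TM4SF4) to 75.1% (DLK1), and 14 of the 23 retained under 5%. Among the 21 left-out genes the median was 10.2% and the lowest 5.98%, so that 0 of 21 were under 5%. At S2D4, 4 of the 23 were already under 0.5 CPM in each library: TM4SF4, CCDC3, ARHGAP9 and ABCD2.

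Of the 14 genes that fell at S1D4, all fell again from S1D4 to S2D4. The step into stage 2 had the larger log2 fold change in 10 of the 14. It was the smaller one in ADAMTS19, CCDC3, ISLR and SCARA3, an order that turned without S2D4 replicate 4 for ISLR (-2.80) and SCARA3 (-1.36) and without S2D4 replicate 1 for ADAMTS19 (-1.80). A further 7 genes (ATP2B3, FBP1, FNDC5, GPR27, IGDCC3, IGLON5 and SLC6A2) fell at the second step with no call at the first.

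**Figure D2:**
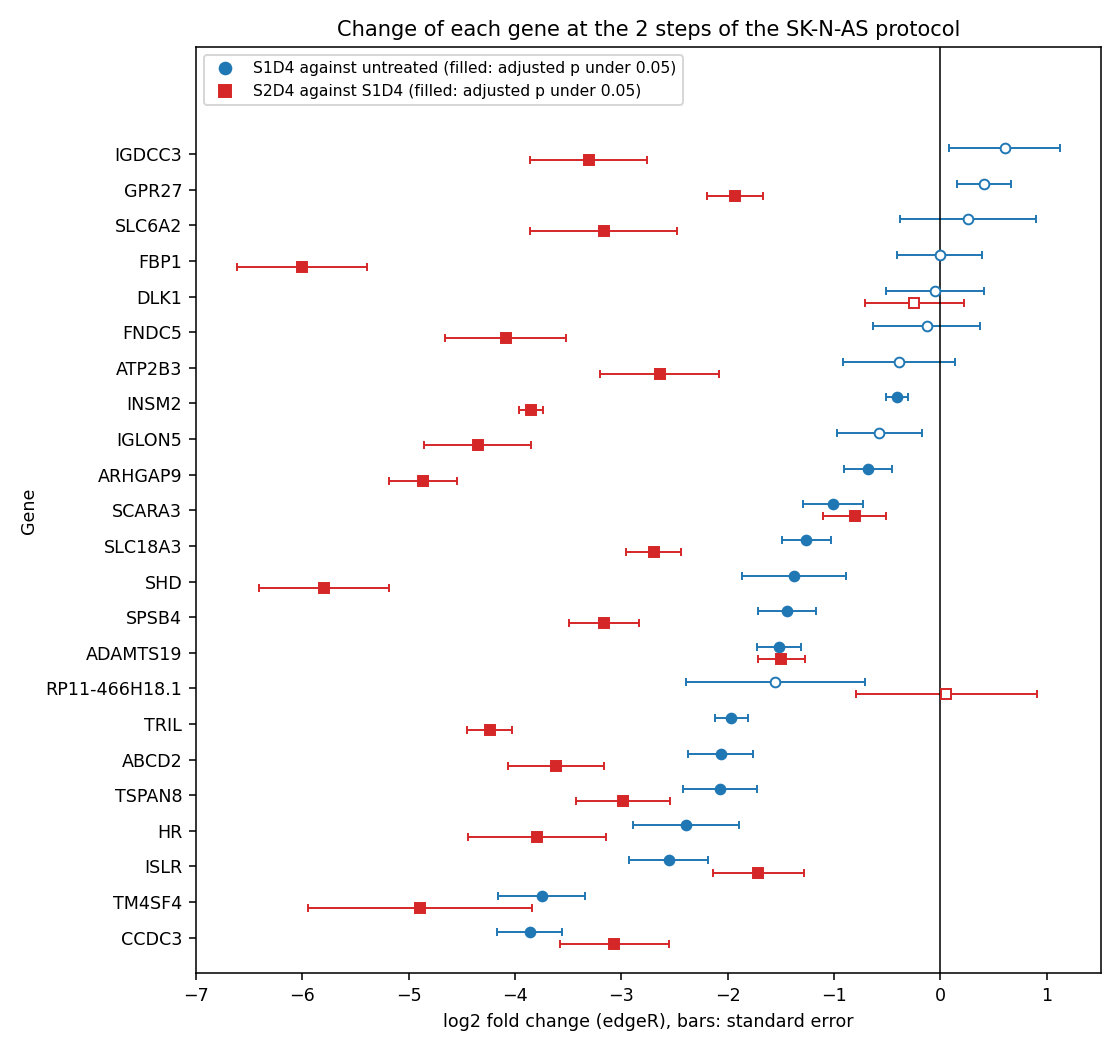
Log2 fold change from edgeR with its standard error for each of the 23 genes (rows), for S1D4 against untreated (circles) and S2D4 against S1D4 (squares), with filled symbols for an adjusted p under 0.05. Squares lie left of circles for most genes, IGDCC3 and FBP1 have circles near or above 0 and squares at -3.305 and -6.002, and both symbols of DLK1 and RP11-466H18.1 are open.

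S2D4 replicate 4 stood apart from the other 3 S2D4 libraries in these genes. It had over 3 times the mean of replicates 1 to 3 in 11 of the 23 genes, in 0 of the 21 left-out genes and in 1.28% of the 9706 genes over 10 CPM in each untreated library. Among the 568 of these 9706 genes that were under 25% of their untreated mean in S2D4 replicates 1 to 3, the share was 14.3%. Its total count, 34292076, was the highest of the group. Without it, the median gene of the 23 retained 2.04% of its untreated mean, and 21 of 23 genes fell in both contrasts that use S2D4. The cause of its difference was not tested.

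**Figure D3:**
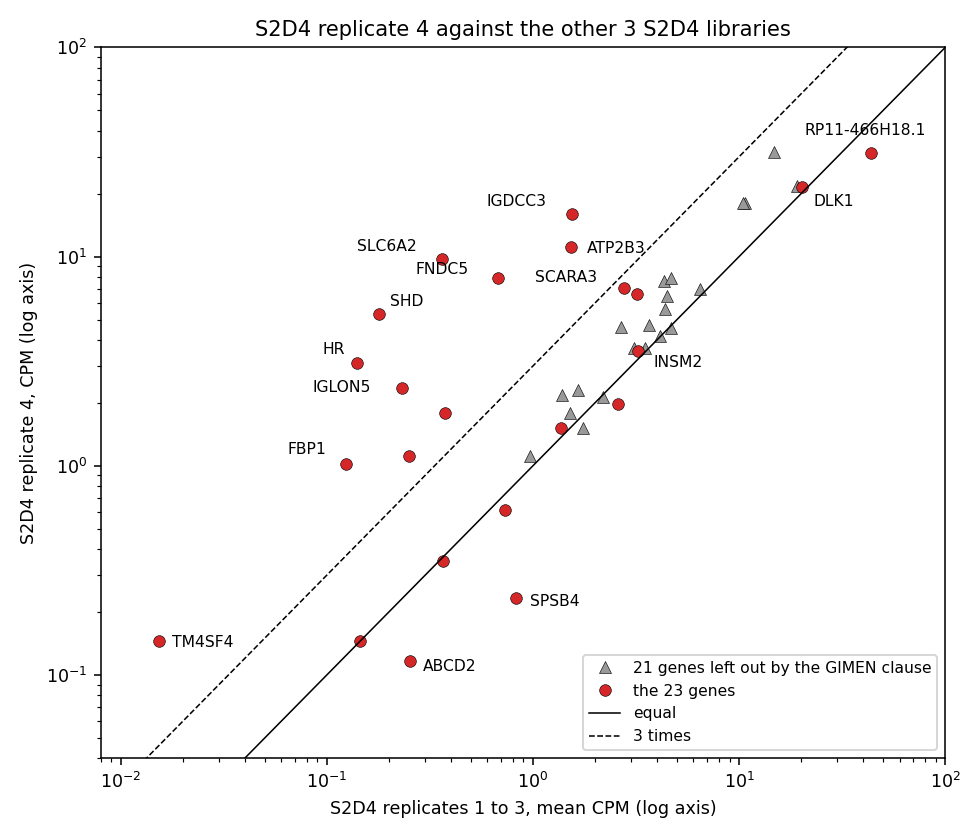
CPM in S2D4 replicate 4 against the mean CPM of S2D4 replicates 1 to 3, both on log axes, for the 23 genes (circles) and the 21 genes left out by the GIMEN clause (triangles), with lines at equality and at 3 times. The 11 circles above the dashed line include SHD at 5.34 against a mean of 0.179 CPM, and no triangle lies above it.

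Among nuclear regulators, HR (hairless), a corepressor of nuclear receptors, had 82.5, 78.6, 87.6 and 99.7 CPM in the 4 untreated SK-N-AS libraries. In S1D4 it had 11.2, 10.3, 24.4 and 23.5 CPM, and in S2D4 0.184, 0.0532, 0.185 and 3.09 CPM. Every S1D4 library lay below every untreated one and every S2D4 library below every S1D4 one, with replicate 4 the highest in S2D4. HR fell at S1D4 by 2.39 ± 0.50 (SE) on the log2 scale (edgeR adjusted p = 0.00171) and by 3.79 ± 0.65 from S1D4 to S2D4 (edgeR adjusted p = 9.09e-05), with a log2 fold change of -6.67 without replicate 4. It was 1 of only 2 of the genes with over 1 CPM in untreated GIMEN, at 12.5 ± 0.688 CPM (SD, n = 3) there and 11.02 ± 2.67 CPM (SD, n = 3) after 30 days, with overlapping libraries.

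INSM2, a zinc-finger repressor related to INSM1 of neuroendocrine cells, had close replicates in every SK-N-AS group before day 30. Its levels were 64.4, 65.5, 69.9 and 82.4 CPM in untreated cells, 59.3, 57.7, 52.1 and 52.7 CPM in S1D4 and 3.40, 3.41, 2.87 and 3.53 CPM in S2D4. It stepped down slightly at S1D4, by 0.41 ± 0.10 on the log2 scale (edgeR adjusted p = 0.0049), and steeply at S2D4, by 3.85 ± 0.12 (edgeR adjusted p = 2.27e-12). In S2D30 it had 0.222 to 0.439 CPM, and GIMEN had 0 counts of it in all 6 libraries. INSM2 belongs to a list of adrenergic transcription factors, of which 22 other genes were tested. From S1D4 to S2D4, 13 of these 22 fell and 0 rose, against 26.8% and 28.3% of all genes, with a median log2 fold change of -0.72 against 0.02. INSM1 went from 113 to 89.5, 22.8 and 2.72 CPM (means of untreated, S1D4, S2D4 and S2D30). In S2D30 against untreated cells 16 of the 22 fell and 1 (HIF3A) rose, where 36.5% of all genes fell and 33.8% rose.

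Among transporters, SLC6A2, the noradrenaline transporter, had 22.9, 29.9, 20.3 and 28.8 CPM in untreated cells and 31.4, 30.0, 33.7 and 32.6 CPM in S1D4. The groups did not overlap, but the fitted change of 0.26 ± 0.64 on the log2 scale did not pass the test (edgeR adjusted p = 0.784). That standard error draws on the spread within all 4 SK-N-AS groups, S2D4 replicate 4 included. The change did not pass in any of the 17 other settings either (lowest edgeR adjusted p = 0.0804). In S2D4 SLC6A2 had 0.276, 0.585 and 0.231 CPM in replicates 1 to 3 and 9.71 CPM in replicate 4. It fell from S1D4 to S2D4 by 3.17 ± 0.69 (edgeR adjusted p = 0.00135), with a log2 fold change of -6.29 without replicate 4. All 6 GIMEN libraries had 0 counts. A stretch of 17.9% of its exonic length is shared with another annotated gene on the same strand. Of 33 other genes of synaptic vesicles, secretory granules and catecholamine handling, 15 fell and 11 rose from S1D4 to S2D4, against 26.8% and 28.3% of all genes, with a median log2 fold change of -0.28 against 0.02. Their levels moved in both directions: the granin CHGA went from 5521 CPM in S1D4 to 1288 CPM in S2D4, and the granule peptide precursor VGF from 11990 to 60930 CPM.

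SLC18A3, which loads acetylcholine into synaptic vesicles, had 28.4, 26.3, 23.03 and 19.4 CPM in untreated cells, 12.3, 14.2, 7.77 and 8.32 CPM in S1D4 and 0.781, 1.76, 1.57 and 1.52 CPM in S2D4. The 3 groups were fully apart. It fell by 1.26 ± 0.23 on the log2 scale at S1D4 (edgeR adjusted p = 0.000421) and by 2.70 ± 0.26 from S1D4 to S2D4 (edgeR adjusted p = 3.51e-07). GIMEN had 0 counts.

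ATP2B3, a plasma membrane calcium pump, varied widely between untreated libraries, with 19.1, 27.2, 39.0 and 71.0 CPM. S1D4 lay inside that range, at 21.6, 24.3, 39.2 and 37.9 CPM, and the difference did not pass the test (edgeR adjusted p = 0.595). In S2D4 it had 1.15, 1.92 and 1.53 CPM in replicates 1 to 3 and 11.1 CPM in replicate 4. The fall from S1D4 to S2D4 was 2.64 ± 0.56 on the log2 scale (edgeR adjusted p = 0.000987), with a log2 fold change of -4.15 without replicate 4. ATP2B3 was the single gene of the 23 whose treated GIMEN libraries (2.21, 1.39 and 1.82 CPM) all lay above the untreated ones (0.955, 0.645 and 0.595 CPM). This difference in GIMEN entered the selection and was not tested.

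GPR27, an orphan G protein-coupled receptor, had 14.9, 14.6, 11.2 and 12.3 CPM in untreated cells and 16.1, 14.1, 20.6 and 23.1 CPM in S1D4. The groups overlapped, and the change of 0.41 ± 0.25 on the log2 scale did not pass the test (edgeR adjusted p = 0.218). It fell to 3.26, 3.78, 2.59 and 6.62 CPM in S2D4, by 1.93 ± 0.26 (edgeR adjusted p = 1.45e-05). At S2D4 it still had 30.6% of its untreated mean. Annotated genes on the opposite strand cover 12.2% of its exonic length, and the strandedness of the libraries is not given in the sources used here, so reads of such partners cannot be told apart.

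Of the 3 signalling adaptors, SHD, an SH2-domain adaptor for tyrosine kinase signalling, was the most abundant per length of the 22 with an annotated exonic length (all but RP11-466H18.1), at 102 CPM per kilobase of exon in untreated cells. It had 229.6, 240.1, 373 and 305 CPM in untreated cells, 103, 107, 133 and 119 CPM in S1D4 and 0.0919, 0.213, 0.231 and 5.34 CPM in S2D4. These 3 groups did not overlap. The fall at S1D4 was 1.37 ± 0.49 on the log2 scale (edgeR adjusted p = 0.0361), and it did not pass the test in 6 of the 8 fits that left out 1 library (adjusted p up to 0.0952) or in the fit without S2D30 (0.0829). It kept its call in 10 of 17 other settings, with the lowest edgeR adjusted p at 7.9e-05. From S1D4 to S2D4 it fell by 5.80 ± 0.62 (edgeR adjusted p = 1.37e-06), with a log2 fold change of -9.13 without replicate 4. GIMEN had 0 counts.

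ARHGAP9, a GTPase-activating protein, had 10.7, 14.2, 28.0 and 24.2 CPM in untreated cells and 13.0, 14.1, 12.5 and 10.2 CPM in S1D4. These overlapped, and its fall at S1D4 of 0.68 ± 0.22 on the log2 scale (edgeR adjusted p = 0.0235) did not pass the test without untreated replicate 3 (0.117) or 4 (0.0655), or S1D4 replicate 3 (0.0508) or 4 (0.0745). Nor did it pass in the fit without S2D30 (edgeR adjusted p = 0.052), in the fit of the compared groups alone (0.0705) or against a log2 fold change of at least 1, so it kept its call in 11 of 18 other settings. In S2D4 it had 0.367, 0.266, 0.462 and 0.35 CPM, a log2 fold change of -4.86 ± 0.32 from S1D4 (edgeR adjusted p = 2.41e-09). Its S2D4 and S2D30 libraries overlapped, and both were under 0.5 CPM throughout. Opposite-strand genes cover 10.3% of its exonic length. SPSB4, a substrate adaptor of a ubiquitin ligase, had 21.1, 19.4, 14.6 and 15.2 CPM in untreated cells, 7.999, 7.71, 5.20 and 6.26 CPM in S1D4 and 0.689, 0.639, 1.16 and 0.233 CPM in S2D4. It fell at both steps, by 1.44 ± 0.27 (edgeR adjusted p = 0.000559) and 3.16 ± 0.33 (edgeR adjusted p = 7.09e-07) on the log2 scale, and S2D30 had 1 count of it in all 4 libraries together.

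Among membrane proteins, TRIL, an accessory protein of Toll-like receptors, had 65.8, 55.9, 53.2 and 55.3 CPM in untreated cells, 17.4, 17.3, 14.0 and 13.0 CPM in S1D4 and 0.873, 0.585, 0.74 and 0.612 CPM in S2D4. Its libraries were close within each group and the groups were apart. It fell by 1.97 ± 0.15 on the log2 scale at S1D4 (edgeR adjusted p = 1.82e-07) and by 4.24 ± 0.21 from S1D4 to S2D4 (edgeR adjusted p = 2.08e-10). S2D4 replicate 4 was not raised for this gene, and GIMEN had 0 counts.

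IGDCC3, an immunoglobulin-superfamily receptor of the DCC subclass, had 36.0, 47.1, 35.8 and 44.3 CPM in untreated cells and 61.3, 69.6, 64.7 and 64.1 CPM in S1D4. Every S1D4 library was above every untreated one, yet the change of 0.60 ± 0.52 on the log2 scale did not pass the test in the fit of 16 libraries (edgeR adjusted p = 0.385). In a fit of these 8 libraries alone it did (edgeR adjusted p = 0.000951), while the lack of a call held in 16 of 17 other settings. In S2D4 it had 1.65, 1.38 and 1.62 CPM in replicates 1 to 3 and 16.04 CPM in replicate 4. From S1D4 to S2D4 it fell by 3.305 ± 0.55 (edgeR adjusted p = 0.000156), with a log2 fold change of -5.19 without replicate 4. IGLON5, a neuronal adhesion protein anchored in the membrane by a lipid, also fell at stage 2. It had 25.3 to 35.0 CPM in untreated cells, 19.2 to 23.03 CPM in S1D4 and 0.0925 to 2.36 CPM in S2D4, with replicate 4 the highest. Its change at S1D4 (-0.57 ± 0.40 log2, edgeR adjusted p = 0.279) did not pass the test in that fit but did in the fit of the 8 libraries alone (0.00351), and from S1D4 to S2D4 it fell by 4.35 ± 0.51 (edgeR adjusted p = 2.25e-06), with a log2 fold change of -6.35 without replicate 4.

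TM4SF4, a 4-pass membrane protein known from liver and gut, was the earliest to go in relative terms together with CCDC3. Its untreated levels were 40.5, 37.3, 21.3 and 17.6 CPM, and S1D4 had 3.58, 3.10, 1.24 and 1.20 CPM. It fell by 3.75 ± 0.41 on the log2 scale at S1D4 (edgeR adjusted p = 1.83e-05). S2D4 had at most 5 counts in a library (0 to 0.146 CPM), a log2 fold change of -4.89 ± 1.05 (edgeR adjusted p = 7.36e-05), with a log2 fold change of -6.57 without replicate 4. S2D30 had 0 counts in each library, at least 213-fold lower than untreated cells when set at 3 counts per library, a bound that covers counting error only. TSPAN8, a tetraspanin of epithelial cells, had 16.5 to 22.8 CPM in untreated cells, 4.25 to 5.71 CPM in S1D4 and 0.106 to 1.11 CPM in S2D4, the highest in replicate 4. It fell by 2.07 ± 0.35 (edgeR adjusted p = 0.000231) and then by 2.98 ± 0.44 (edgeR adjusted p = 2.06e-05) on the log2 scale, with a log2 fold change of -4.03 without replicate 4.

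SCARA3, a class A scavenger receptor protein, was the gene with the most expression in GIMEN. It had 744, 746 and 738 CPM in untreated GIMEN libraries and 259, 215 and 171 CPM after 30 days, a ratio of means of 0.29, just inside the clause. In SK-N-AS it had 17.2, 18.5, 11.1 and 15.1 CPM untreated, 8.36, 8.13, 8.30 and 7.46 CPM in S1D4, 2.66, 2.87, 2.77 and 7.09 CPM in S2D4 and 0.0889 to 0.251 CPM in S2D30. Treated GIMEN thus held more of this transcript than untreated SK-N-AS in every library. SCARA3 fell at S1D4 by 1.01 ± 0.29 on the log2 scale (edgeR adjusted p = 0.0104). Its fall from S1D4 to S2D4, 0.81 ± 0.30 (edgeR adjusted p = 0.0296), did not pass the test in 6 fits that left out 1 library, S1D4 replicate 1, 2 or 3 or S2D4 replicate 1, 2 or 3 (adjusted p 0.0532 to 0.0916), nor in the fit of the compared groups alone (0.0675).

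Of the secreted or shed proteins, FNDC5, the precursor of irisin, had 38.7, 50.6, 71.5 and 72.7 CPM in untreated cells and 56.0, 65.1, 54.1 and 47.1 CPM in S1D4. These overlapped, and the difference did not pass the test (-0.13 ± 0.50 log2, edgeR adjusted p = 0.87). In S2D4 it had 0.413, 0.639 and 0.971 CPM in replicates 1 to 3 and 7.90 CPM in replicate 4, a log2 fold change of -4.09 ± 0.57 from S1D4 (edgeR adjusted p = 2.47e-05), with a log2 fold change of -6.17 without replicate 4. ISLR, an immunoglobulin and leucine-rich repeat protein of stromal cells, fell at both steps. It went from 13.7 to 21.1 CPM over untreated libraries to 2.72 to 3.25 CPM, a log2 fold change of -2.56 ± 0.37 (edgeR adjusted p = 7.09e-05). From S1D4 to S2D4 (0.16 to 1.78 CPM, highest in replicate 4) it fell by 1.71 ± 0.43 (edgeR adjusted p = 0.00268), with a log2 fold change of -2.80 without replicate 4.

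ADAMTS19, a secreted metalloprotease, fell in 2 steps of like size. It had 17.1 to 24.0 CPM in untreated cells, 6.56 to 9.16 CPM in S1D4 and 1.85 to 3.90 CPM in S2D4, the highest in replicate 1, with falls of 1.51 ± 0.21 (edgeR adjusted p = 3.11e-05) and 1.49 ± 0.22 (edgeR adjusted p = 2.97e-05) on the log2 scale. CCDC3, a secreted coiled-coil protein, had the lowest share left at S1D4. It had 21.1, 17.97, 23.5 and 18.9 CPM in untreated cells, 1.92, 2.26, 0.858 and 0.802 CPM in S1D4 and 0.138 to 0.16 CPM in S2D4. The fall was 3.86 ± 0.31 on the log2 scale at S1D4 (edgeR adjusted p = 2.65e-07) and 3.07 ± 0.51 from there to S2D4 (edgeR adjusted p = 2.78e-05), and S2D4 and S2D30 overlapped.

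DLK1, a non-canonical Notch ligand expressed from the paternal allele in fetal and chromaffin tissue, was the single gene of the 23 known to be protein coding with no fall called by S2D4. Its change from untreated cells to S2D4 was -0.29 ± 0.46 on the log2 scale, too uncertain to show that its level held. Untreated replicates 1 and 2 had 49.8 and 39.2 CPM and replicates 3 and 4 had 10.2 and 10.2 CPM. In S1D4 the same numbers had 41.7, 41.0, 14.1 and 15.8 CPM, while the 4 S2D4 libraries lay close together at 18.9, 20.5, 21.1 and 21.6 CPM. Neither contrast that uses S2D4 passed the test (edgeR adjusted p = 0.603 against untreated and 0.682 against S1D4), nor did S1D4 against untreated (edgeR adjusted p = 0.95). In S2D30 it had 0.0439 to 0.178 CPM, so its low level was first seen at day 30. Of 14 other tested genes of a fetal and stem gene list, 3 fell and 4 rose from S1D4 to S2D4, shares near the 26.8% and 28.3% of all genes.

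Of the metabolic genes, FBP1, the fructose bisphosphatase of gluconeogenesis, had 40.2, 35.8, 25.3 and 19.5 CPM in untreated cells and 39.1, 38.9, 25.2 and 23.9 CPM in S1D4. The groups overlapped with a fitted change of 0.00 ± 0.40 on the log2 scale (edgeR adjusted p = 0.998). In S2D4 it had 0 CPM in replicates 1 and 2, 0.37 CPM in replicate 3 and 1.02 CPM in replicate 4. This log2 fold change of -6.002 ± 0.61 (edgeR adjusted p = 2.29e-07), with a log2 fold change of -7.72 without replicate 4, was the largest of the 23 from S1D4 to S2D4 in the fit of 16 libraries, whereas without replicate 4 that of SHD (-9.13) was larger. Opposite-strand genes cover 16.3% of its exonic length. ABCD2, a peroxisomal transporter of very long-chain fatty acids, had 11.01, 10.4, 10.9 and 17.3 CPM in untreated cells, 1.83 to 3.91 CPM in S1D4 and 0.117 to 0.459 CPM in S2D4. It fell by 2.06 ± 0.31 (edgeR adjusted p = 7.94e-05) and by 3.62 ± 0.45 (edgeR adjusted p = 2.05e-06) on the log2 scale, with a log2 fold change of -4.23 without S2D4 replicate 1.

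RP11-466H18.1, whose function is not given in the sources used here, was variable in every group with counts. It had 165, 143, 141 and 47.1 CPM in untreated cells, 75.4, 75.3, 0 and 27.8 CPM in S1D4 and 58.4, 57.6, 14.6 and 31.4 CPM in S2D4. S1D4 replicate 3 thus had no count of it where the other 3 libraries had over 27 CPM. No contrast passed the test in the fit of 16 libraries (edgeR adjusted p = 0.175 for S1D4 and 0.146 for S2D4 against untreated, and 0.962 for S2D4 against S1D4). In a fit of the compared groups alone, S2D4 against untreated did pass (edgeR adjusted p = 0.0217, log2 fold change -1.48). All S2D30 and GIMEN libraries had 0 counts, at least 903-fold below untreated SK-N-AS for S2D30 when set at 3 counts per library.

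**Figure D4:**
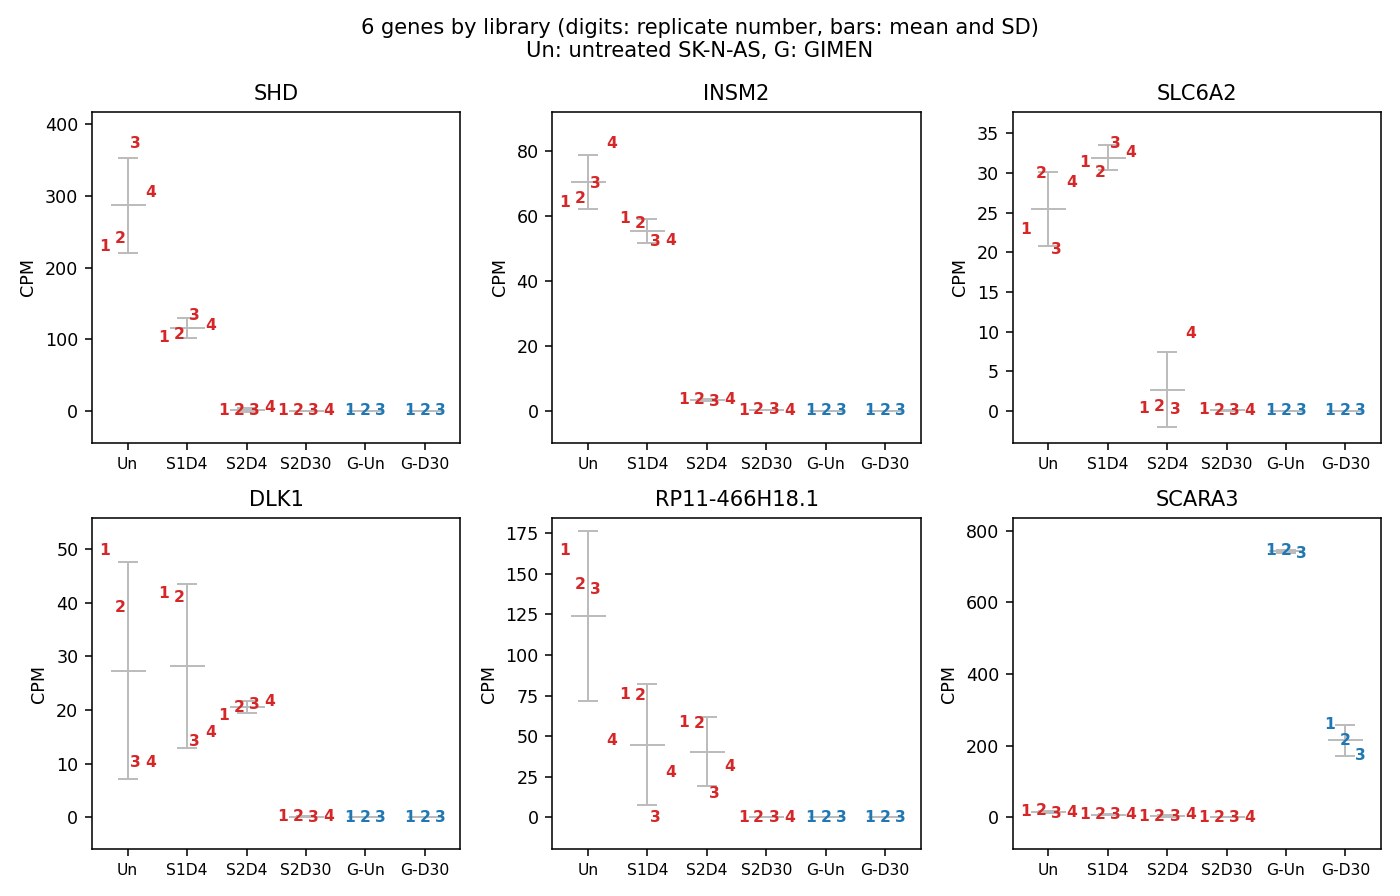
CPM of SHD, INSM2, SLC6A2, DLK1, RP11-466H18.1 and SCARA3 in each library (digits give the replicate number, bars the mean and SD) of untreated SK-N-AS (Un), S1D4, S2D4, S2D30, untreated GIMEN (G-Un) and treated GIMEN (G-D30). DLK1 and RP11-466H18.1 remain in S2D4, SLC6A2 remains there only in replicate 4 at 9.71 CPM, and SCARA3 is higher in all GIMEN libraries than in any SK-N-AS library.

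Within untreated and S1D4 cells, replicates 1 and 2 lay apart from 3 and 4 in several genes. In 11 of the 23 both higher libraries were the same numbers in both groups. This also held for 7 of the 21 left-out genes, and the share over all genes was not counted. In S1D4 alone, replicates 1 and 2 both lay above 3 and 4 in 13 of the 23 and in 20 of the 21 left-out genes. The split is therefore not particular to the 23. For DLK1, the mean of replicates 1 and 2 was 4.36 times that of 3 and 4 in untreated cells and 2.77 times in S1D4. The same ratios were 1.999 and 2.73 for TM4SF4 and 1.70 and 1.59 for FBP1. They were inverted for ATP2B3, at 0.421 and 0.596. The labels name no batch. With a term for these replicates in the model, chosen after seeing the data, 14 of the 23 still fell at S1D4 and 21 from S1D4 to S2D4.

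Between S2D4 and S2D30 the 23 genes split. In 13 the 4 S2D30 libraries lay below all S2D4 libraries, and in 10 they overlapped, which is a description since S2D30 entered the selection. The 10 are SHD, HR, IGLON5, FBP1, TM4SF4, CCDC3, TSPAN8, ARHGAP9, ISLR and ABCD2. Of these, TM4SF4, CCDC3, ARHGAP9 and ABCD2 were already under 0.5 CPM in each S2D4 library, which left little room for a further fall. All 21 left-out genes, selected by the same S2D30 limit, lay lower in S2D30 than in S2D4. The share over all genes was not counted, so the split cannot be called particular to the 23. In S2D30 no gene of the 23 had more than 11 counts in a library, and 5 had at most 3 in each.

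The limits of the selection were close to several genes. Just over 10 CPM in the lowest untreated library were DLK1 (10.2 CPM) and ABCD2 (10.4 CPM), and just under it SOX18 (9.35 CPM) and FRMPD1 (8.75 CPM). Just under 0.5 CPM in the highest S2D30 library were IGLON5 and ISLR (both 0.489 CPM), and just over it NCAM2 (0.501 CPM) and INSRR (0.527 CPM). At the GIMEN clause the nearest genes inside were SCARA3 (ratio 0.29) and HR (0.878), and outside NEURL1B (0.21) and TTK (0.03).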

How the data were processed

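The deposited table holds raw read counts per gene (35237 genes, 22 libraries). Per the labels' protocols, the libraries were sequenced on the HiSeq X in paired-end mode from total RNA; the aligner, the gene counter, the genome build, the annotation and the strandedness are not given in the sources used here, and no gene coordinates other than those of the RefSeq promoter windows are printed. CPM used column totals. Counts of the 16 SK-N-AS libraries were tested with edgeR 4.0.16 (R 4.3.3; filterByExpr with a minimum count of 10 and a total of 15, TMM factors, quasi-likelihood F-test) in 1 model of 4 groups, with Benjamini-Hochberg adjustment over 15810 genes; DESeq2 1.42.0 was an alternative. The script was tested on simulated counts. The common biological coefficient of variation was 0.183. No 2 libraries agreed within sampling noise (lowest chi-square per degree of freedom 2.73). All 23 genes are named, with the 2 genes nearest each limit of the selection on either side; single genes of the lists (INSM1, HIF3A, CHGA, VGF), PTPRC and the promoter windows shown were chosen after their values were seen. The genes, lists and tests were chosen with earlier results of these data known. Of several promoter windows of a gene, the one with the lowest coordinate was used. Exonic lengths and overlaps came from GENCODE. Alternatives were other normalizations, filters, tests and models, a replicate block, and leaving out each library.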

Additional observations from a re-analysis of the deposited data

Results flagged for a closer look

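In sets of 4 SK-N-AS libraries, 15 of the genes' values lay farther from the others than the critical value of Dixon's test allows (gap to the nearest library over the range), among 90 sets tested. For independent, normally distributed values chance exceeds it in about 5% of sets. That rate does not apply to the untreated and S2D30 sets, whose values the selection bounded. Nor does it apply to flags that share 1 library, so the 15 are listed as a description. S2D4 replicate 4 was the high library in 8 of the 15: SHD at 5.34 CPM, HR at 3.09, FNDC5 at 7.90, IGDCC3 at 16.04, ATP2B3 at 11.1, IGLON5 at 2.36, SLC6A2 at 9.71 and SCARA3 at 7.09 CPM, where the other 3 libraries reached at most 2.87 CPM in any of these genes. S2D4 replicate 1 was high for ADAMTS19 (3.90 CPM, others up to 1.98) and ABCD2 (0.459 CPM, others up to 0.16). Untreated replicate 4 was high for ABCD2 (17.3 CPM, others up to 11.01). At S2D30, where a few counts decide, replicate 1 was high for SHD (0.311 CPM), replicate 2 high for TRIL (0.451 CPM) and low for ARHGAP9 (0.2004 CPM), and replicate 3 held the only count of SPSB4 (0.0439 CPM). The causes were not tested.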

How the results depend on the processing

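The selection moved most with its own limits: 46 genes at 5 CPM in untreated cells, 9 at 20 CPM, 9 at 0.25 CPM in S2D30, 44 at 1 CPM and 44 without the GIMEN clause, against 23; leaving out 1 library gave 23 to 26, and TMM-scaled CPM gave 22. Counts of genes that fell stayed at 12 to 14 for S1D4, at 18 to 22 for S2D4 against untreated cells and at 18 to 21 for S2D4 against S1D4; with 1 library left out they were 12 to 14, 21 and 20 to 21. The lower end of 18 is DESeq2's, which gave no adjusted p for SHD, IGDCC3 and SLC6A2. The 1 rise called at S1D4, against 0, was IGDCC3 in the fit of the compared groups alone. The same-numbered libraries of S1D4 and untreated cells correlated at 0.305, 0.276, 0.033 and 0.311, and replicates 1, 2 and 4 but not 3 correlated best with their own number, a hint of pairing from the data that the labels do not give; in the contrasts with S2D4 every such correlation was under 0.1. Pairing was therefore not assumed, and a replicate block left the counts at 14, 21 and 21. Against a log2 fold change of at least 1, INSM2 and ARHGAP9 at S1D4 and SCARA3 from S1D4 to S2D4 were not called. Signs turned only in genes that passed no test there, and the cause was not tested. FBP1 at S1D4 was 0.01996 with DESeq2 size factors, 0.0265 with upper-quartile factors, 0.0246 with no filter, 0.00364 with the replicate block, 0.0166 with the term for replicates 3 and 4, 0.0148 without S2D30, 0.0199 by DESeq2 and 0.0302 in the compared groups alone (log2, main value -0.0029), and -0.175 to 0.20 with 1 library left out. DLK1 was 0.0704 (S1D4), 0.14 (S2D4 against untreated) and 0.0699 (S2D4 against S1D4) with the replicate block, and 0.14 and 0.0792 in the first 2 with the term; leaving out 1 library gave -0.329 to 0.452, -0.564 to 0.217 and -0.468 to 0.0134. ATP2B3 at S1D4 ranged over -0.587 to 0.0409 and RP11-466H18.1 for S2D4 against S1D4 over -0.359 to 0.439 with 1 library left out, the latter -0.0415 with upper-quartile factors. Depth limits the S2D30 values, where 1 count is worth about 0.05 CPM.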
